A study of Mus musculus with 8 samples.

Results

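The enzymes that convert cholesterol to bile acids and conjugate them were followed in mouse liver by RNA-sequencing. The 10 genes were named by symbol, with no threshold on their values, and every one matched 1 Ensembl gene identifier among the 38283 genes of the expression table. They were Cyp7a1, Cyp8b1, Cyp7b1, Cyp27a1, Cyp39a1, Hsd3b7, Akr1d1, Amacr, Acox2 and Baat. All 10 were above an FPKM of 1 (mapped fragments scaled to the length of the transcript and the size of the library) in all 8 libraries, so that none was lost to the filter on low values. The study asked what loss of the nuclear receptor RORα in liver does to hepatic gene expression on a control diet (CD) and on a high-fat diet (HFD).

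The libraries fell into 4 groups of 2. The floxed controls carried RORa f/f, in which loxP sites flank exons 4 and 5 of the Rora gene, without Cre, and were fed the CD or the HFD. The liver knockouts (LKO) were Alb-cre;RORa f/f, in which Cre is driven by the albumin promoter and acts in hepatocytes, and were fed the same diets. All animals were male mice of the C57BL/6 background. The diets were given for 10 weeks from 8 weeks of age, and 60% of the calories of the HFD came from fat. Each library pooled the livers of 2 mice, so that a group of 2 libraries stands for 4 mice and the p-values measure the spread between pools. The time of day of collection was not given in the sources used here.

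Bile acids are made in hepatocytes by a classic and an alternative route. CYP7A1 starts the classic route by 7α-hydroxylation of cholesterol and sets its rate, and CYP8B1 adds the 12α-hydroxyl group that directs the product to cholic acid. In the alternative route CYP27A1 oxidizes the side chain, CYP7B1 7α-hydroxylates oxysterols and CYP39A1 does so for 24-hydroxycholesterol, after which HSD3B7 and AKR1D1 modify the ring, AMACR and ACOX2 act in the peroxisomal shortening of the side chain, and BAAT joins the finished acid to taurine or glycine. Bile acids hold back their own synthesis through the receptor FXR (Nr1h4), its target SHP (Nr0b2) and the FGF15 receptor pair of Fgfr4 and Klb.

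On GRCm38 the genes are dispersed. Cyp7a1 (chr4:6265612-6275633, minus strand, 6 exons) and Baat (chr4:49489422-49506557, minus strand, 4 exons) share chromosome 4, and the other members each lie on a chromosome of their own. Cyp8b1 (chr9:121914356-121916305, minus strand) is annotated with 1 exon, and Cyp7b1 (chr3:18071950-18243338, minus strand) with 6. Hsd3b7 (chr7:127800604-127803802, plus strand) overlaps the coding gene Gm49388 on its own strand and 9430064I24Rik on the other, so that its FPKM is uncertain as far as shared reads were divided, since the library kit does not mark strand. The upstream bases of 3 members are shown because RORα binds the core sequence AGGTCA after an A- and T-rich stretch and because REV-ERB, clock and PAR bZIP factors read related motifs. The sequences are from RefSeq on GRCm38.p6, where 5 of the 10 members (Cyp27a1, Akr1d1, Hsd3b7, Cyp8b1 and Acox2) matched, while Cyp7a1, Cyp7b1, Cyp39a1, Amacr and Baat were not matched. Each runs 5′ to 3′ over the 250 bases before the annotated start, for Cyp8b1 at chr9:121916306-121916555 (minus strand), for Hsd3b7 at chr7:127800359-127800608 and for Akr1d1 at chr6:37529923-37530172 (both plus strand). Capitals mark motifs that were searched on both strands.
Cyp8b1: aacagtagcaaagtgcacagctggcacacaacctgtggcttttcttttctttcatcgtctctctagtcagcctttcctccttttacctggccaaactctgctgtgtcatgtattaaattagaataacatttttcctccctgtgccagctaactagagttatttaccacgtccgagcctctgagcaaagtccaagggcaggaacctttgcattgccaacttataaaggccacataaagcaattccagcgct
Hsd3b7: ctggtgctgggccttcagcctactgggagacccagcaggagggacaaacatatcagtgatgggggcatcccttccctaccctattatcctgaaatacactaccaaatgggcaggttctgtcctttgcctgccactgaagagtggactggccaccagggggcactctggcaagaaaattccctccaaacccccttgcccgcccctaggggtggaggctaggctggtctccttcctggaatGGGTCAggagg
Akr1d1: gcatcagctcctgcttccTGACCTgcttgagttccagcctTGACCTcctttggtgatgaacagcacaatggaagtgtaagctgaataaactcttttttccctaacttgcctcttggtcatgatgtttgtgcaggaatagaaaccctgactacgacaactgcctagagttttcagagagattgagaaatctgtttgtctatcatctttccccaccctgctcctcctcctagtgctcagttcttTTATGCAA

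In windows of the 250 bases before a start, AGGTCA was present in 14.0% of 32817 RefSeq promoters. Among the 5 members with a window it was in Akr1d1, where its reverse complement stood at -232 to -227 and at -210 to -205. The window of Hsd3b7 held GGGTCA at -11 to -6, a sequence present in 11.6% of all windows. The D-box TTATGNAA, in 3.07% of windows, stood in Akr1d1 at -8 to -1 and in Cyp27a1 at -60 to -53. TAGGTCA, which includes AGGTCA, was in 2.24% of all windows, a direct repeat of AGGTCA with any 1 base between its copies in 0.0335% and the E-box CACGTG in 6.02%, and no member window held any of these. Cyp8b1 held none of the searched sequences. A match describes the letters of the window and not a bound site.

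The genotype rests on the labels. Rora FPKM was 8.85 and 8.59 in the f/f-labelled CD libraries and 7.96 and 8.18 in the LKO-labelled CD libraries, but 7.56 and 7.86 against 7.30 and 8.02 on HFD, where the values overlapped. The value covers the whole gene and only exons 4 and 5 were floxed, so that it checks little, and the libraries are called LKO-labelled and f/f-labelled here. Between 10587 and 10706 genes were above an FPKM of 1 per library, and read totals were not used here. The f/f-labelled CD replicate 2 stood apart, with a summed FPKM of 983738 against 732622 to 806782 in the others, of which 183794 came from the single gene ENSMUSG00000093077. The hepatocyte marker Alb was listed at 0 in 4 libraries (LKO-labelled CD replicate 1, f/f-labelled HFD replicate 2 and both LKO-labelled HFD libraries) and at 29900 to 30890 in the other 4. The 6 other hepatocyte markers found, such as Apoa1 and Ttr, summed to between 10320 and 13020 in all 8 libraries. Of the bile duct markers, Krt7, Krt19, Epcam and Cftr were at or under 1 throughout. In whole liver, fewer cells of a type and less RNA per cell cannot be told apart.

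The members were abundant liver transcripts, and their order changed between the groups. In length-scaled FPKM, the mean over 8 libraries ran from 11.95 for Cyp39a1, above 65.7% of tested genes, to 210.9 for Hsd3b7, above 97.1%. In f/f-labelled CD liver the order of the mean FPKM was Cyp8b1 (257 ± 40.3, SD, n = 2), Cyp7b1 (200.5 ± 10.4), Cyp27a1, Hsd3b7, Baat, Acox2, Cyp7a1, Akr1d1, Amacr and Cyp39a1 (7.99 ± 2.05). In that order Acox2 and Cyp7a1, and Cyp7a1 and Akr1d1, overlapped in their library values, and the other neighbours did not. In LKO-labelled HFD liver Hsd3b7 came first (254 ± 0.0905) and Cyp7b1 had dropped from rank 2 to rank 8 (42.5 ± 6.91), next to Cyp7a1 at rank 9 (38.7 ± 10.7), whose library values overlapped its own. Cyp39a1 was the lowest of the 10 in every library. The summed FPKM of the members stayed between 1058 and 1299 in all libraries.

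**Figure D1:**
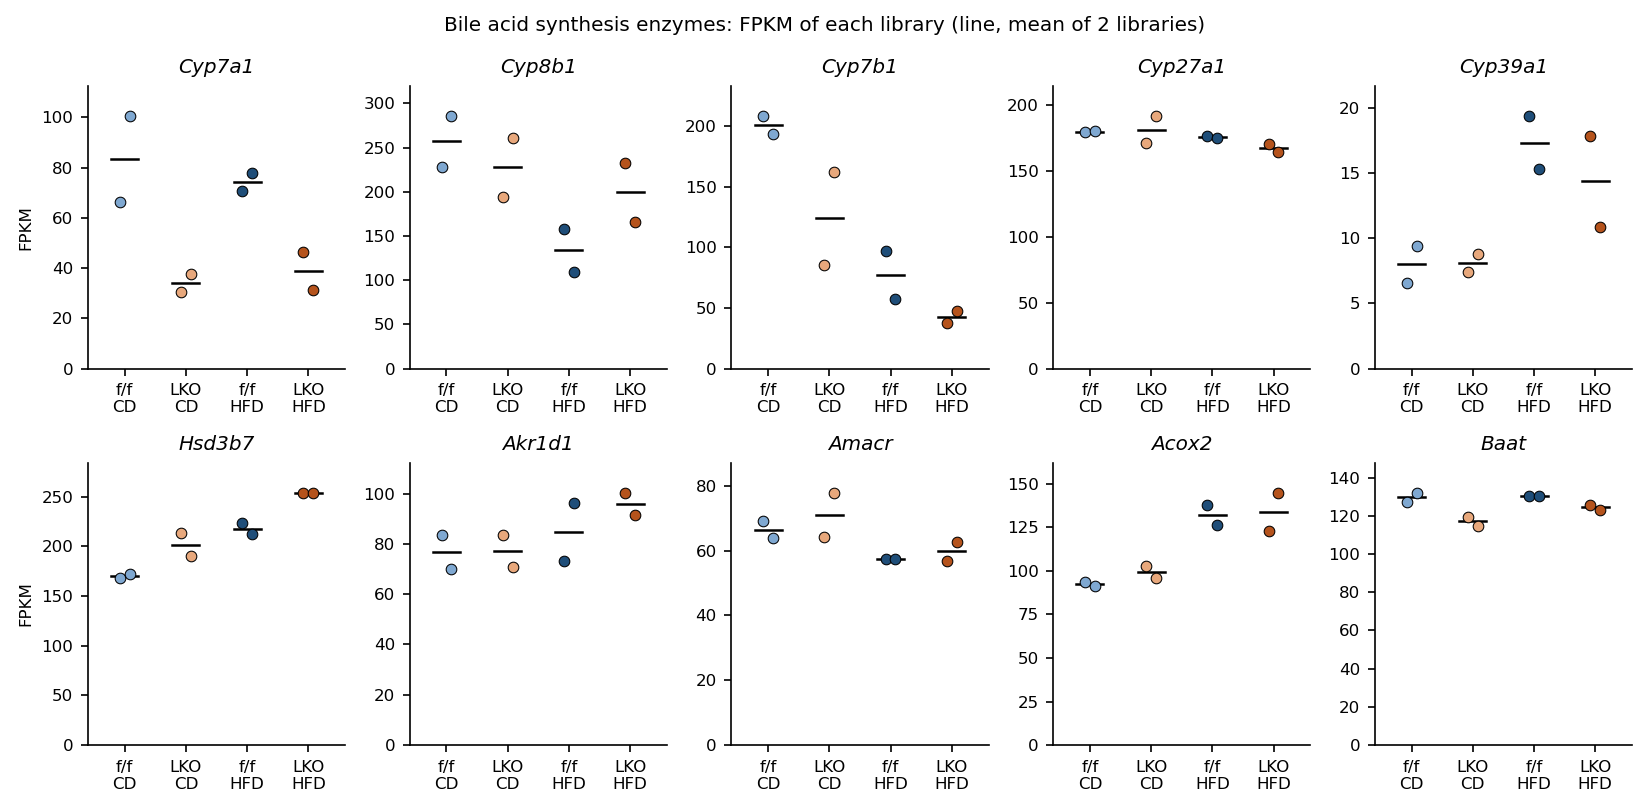
FPKM of the 10 bile acid synthesis genes (vertical axis from 0, one panel per gene) in each of the 8 libraries, grouped by genotype label and diet; points are libraries and lines are means of 2 libraries. The 4 LKO-labelled points of Cyp7a1, from 30.3 to 46.2, lie below the 4 f/f-labelled points, from 66.3 to 100.4, while Cyp27a1 stays between 164 and 192.

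Cyp7a1 had the largest genotype difference among the members, and it had the same sign on both diets. Its FPKM was 66.3 and 100.4 in f/f-labelled CD liver and 30.3 and 37.8 in LKO-labelled CD liver. On HFD it was 70.7 and 77.6 under the f/f label and 46.2 and 31.1 under the LKO label. All 4 LKO-labelled libraries were below all 4 f/f-labelled ones, a split downward that 2.36% of the tested genes also showed. In limma on log2(FPKM + 1), two-sided and adjusted over 11634 genes by the Benjamini-Hochberg method, the difference (LKO minus f/f) was -1.23 ± 0.26 (SE, adjusted p = 0.20) on CD and -0.94 ± 0.26 (adjusted p = 0.33) on HFD. Averaged over the diets it was -1.09 ± 0.18 (95% interval -1.52 to -0.66), a factor of 0.470, with an unadjusted limma p of 0.00062 and an adjusted p of 0.099, rank 71 of the genes by p. The adjusted p came under the threshold of 0.05 with one alternative, the limit to genes above an FPKM of 1 in all 8 libraries (0.046), while the range over all alternatives to the fit was 0.046 to 0.17, and it lay between 0.14 and 0.22 when 1 library was left out.

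The diet difference of Cyp7a1 (HFD minus CD) was small against its error, -0.08 ± 0.26 in f/f-labelled and 0.21 ± 0.26 in LKO-labelled liver. The corresponding limma 95% intervals were -0.70 to 0.53 and -0.41 to 0.82, so that changes of up to about these sizes could not be seen with 2 libraries a group. Cyp7a1 transcription is known to follow the time of day, and genes of the clock were therefore followed beside it. Of 17 tested genes of the clock and its output, 9 were lower and 1 was higher in LKO-labelled HFD liver at an unadjusted limma p under 0.05 (9.58% of all tested genes), although none passed the adjusted threshold (lowest adjusted p 0.14). On CD, 4 were lower and 1 was higher at that unadjusted limma p (12.3% of all tested genes) and none passed (lowest adjusted p 0.21), and the summed FPKM overlapped, at 297 to 337 in the f/f-labelled and 288 to 308 in the LKO-labelled libraries. On HFD their summed FPKM was 357 to 397 in the f/f-labelled and 269 to 300.1 in the LKO-labelled libraries. Dbp, a PAR bZIP factor named as an activator of Cyp7a1, had a log2 difference of -1.0 ± 0.16 (limma adjusted p = 0.14) on HFD, and Per2 one of -0.57 ± 0.10 (adjusted p = 0.20). For the diet in the average over genotypes, 4 of the 17 passed the limma adjusted threshold (9.89% of all tested genes). Nr1d1, Hlf and Ciart rose and Bhlhe40 fell on HFD. Nr1d1 (limma adjusted p = 0.0036) had an FPKM of 23.73 to 28.09 in the CD and 48.3 to 65.55 in the HFD libraries. Within the genotypes, 1 passed for the diet in f/f-labelled (1.33%) and 3 in LKO-labelled liver (3.02%). The part of the clock genes or of the time of collection in the Cyp7a1 values was not tested.

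Cyp8b1, the sterol 12α-hydroxylase, was lowest in f/f-labelled HFD liver. Its FPKM was 228 and 285 in f/f-labelled and 194 and 261 in LKO-labelled CD liver, and the 2 genotypes overlapped there. On HFD it was 158 and 109.7 under the f/f label and 233 and 166 under the LKO label, with no overlap. The genotype difference in limma was -0.17 ± 0.25 (adjusted p = 0.81) on CD and 0.61 ± 0.25 (unadjusted p = 0.048, adjusted p = 0.51) on HFD. The diet difference was -0.88 ± 0.25 in f/f-labelled liver, a factor of 0.544 (limma adjusted p = 0.14), and -0.10 ± 0.25 in LKO-labelled liver (adjusted p = 0.87). The test of the difference between these, the genotype by diet interaction, gave 0.78 ± 0.36 (95% interval -0.07 to 1.63, limma adjusted p = 0.63), so that the effects were not shown to differ between the genotypes.

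Markers of Kupffer cells and macrophages had no adjusted call in limma in any comparison. All 8 of the listed markers had a higher value in LKO-labelled than in f/f-labelled HFD liver, 3 of them at an unadjusted limma p under 0.05 (9.58% of all tested genes). On CD 7 of the 8 had a lower value in LKO-labelled liver, 1 of them at that unadjusted p (12.3%). All 8 had a lower value on HFD than on CD in f/f-labelled liver and a higher one in LKO-labelled liver. Their summed FPKM was 82.8 to 108 in f/f-labelled CD, 79.9 to 83.5 in LKO-labelled CD, 63.9 to 77.1 in f/f-labelled HFD and 79.6 to 112 in LKO-labelled HFD liver, and no marker was at or under 1 in all libraries. Over the 8 libraries, Clec4f, a Kupffer cell lectin, was second in likeness to Cyp8b1 among 6739 genes (Pearson r = 0.95). That rank is a description only, since it was picked from many genes that share the same 8 libraries and 4 groups. Of the adipocyte markers, Adipoq, Retn, Lep and Plin1 were at or under 1 in every library, and the list summed to 1.04 to 2.17 in f/f-labelled and 5.31 to 5.55 in LKO-labelled HFD liver. Cfd made up 5.45 and 5.29 of it in the LKO-labelled HFD libraries, but 0.488 and 1.88 in the f/f-labelled ones. The part of these cells in the Cyp8b1 values was not tested.

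Cyp7b1, the oxysterol 7α-hydroxylase, had the widest range of the 10, 5.53-fold between its lowest and its highest library. Its FPKM was 208 and 193 in f/f-labelled and 85.3 and 162 in LKO-labelled CD liver. On HFD it was 96.8 and 56.9 under the f/f label and 37.6 and 47.4 under the LKO label. Under each label both HFD libraries were below both CD libraries, and on each diet both LKO-labelled libraries were below both f/f-labelled ones. The diet difference in limma was -1.36 ± 0.34 in f/f-labelled (adjusted p = 0.11) and -1.39 ± 0.34 in LKO-labelled liver (adjusted p = 0.081), and the average of the genotypes fell by 1.37 on the log2 scale (SE 0.24, adjusted p = 0.020), a factor of 0.386. That call was kept without LKO-labelled CD replicate 1 (adjusted p = 0.020) or f/f-labelled HFD replicate 1 (0.036) and lost without any one of the other 6 libraries (0.051 to 0.078). The genotype difference was -0.76 ± 0.34 on CD (limma adjusted p = 0.42) and -0.78 ± 0.34 on HFD (adjusted p = 0.54).

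Cyp7b1 is known as a male-predominant gene of mouse liver, and other genes with a sex bias moved with the diet in these male livers. All 10 male-biased genes listed had a negative diet difference in the average of the genotypes, and 3 fell past the adjusted limma threshold (9.89% of all tested genes passed it). These were Cyp4a12a (log2 difference -1.49, adjusted p = 0.0069), Susd4 and the complement gene C6. Of 4 tested female-biased genes, Cyp2b9 (3.07, limma adjusted p = 0.0059) and Cyp2b13 rose past that threshold, beside the same 9.89%. Summed FPKM of the male-biased list was 6329 to 7488 in the CD libraries, 4909 to 6645 in f/f-labelled HFD and 3381 to 4031 in LKO-labelled HFD liver. Most of each sum was the single gene Mup20, at 5363 and 3767 in f/f-labelled and 2858 and 2172 in LKO-labelled HFD liver. Gene by gene, 6 of the 10 were higher and 4 lower in LKO-labelled than in f/f-labelled HFD liver, with a median log2 difference of 0.04. Whether these genes bear on the Cyp7b1 values was not tested.

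The 2 other cytochromes of the alternative route behaved differently from each other. Cyp27a1, the mitochondrial sterol 27-hydroxylase, was 179.7 and 180.5 in f/f-labelled CD, 171 and 192 in LKO-labelled CD, 177 and 175 in f/f-labelled HFD and 171 and 164 in LKO-labelled HFD liver. Its FPKM varied by 4.66% (coefficient of variation over 8 libraries), the lowest of the members. Its log2 difference in limma lay between -0.02 and 0.02 in the genotype and diet comparisons on single diets or genotypes, with 95% intervals that stayed within -0.20 and 0.19, and the diet difference in f/f-labelled liver changed sign under another scaling.

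Cyp39a1, the oxysterol 7α-hydroxylase for 24-hydroxycholesterol, was 6.54 and 9.44 in f/f-labelled and 7.38 and 8.82 in LKO-labelled CD liver, and 19.4 and 15.3 in f/f-labelled and 17.9 and 10.9 in LKO-labelled HFD liver. All 4 HFD libraries were above all 4 CD libraries, as for 16.7% of tested genes in either direction. It rose by 0.91 ± 0.18 in the average of the genotypes (limma adjusted p = 0.028), a factor of 1.88. Within f/f-labelled liver the difference was 1.06 ± 0.25 (adjusted p = 0.099) and within LKO-labelled liver 0.77 ± 0.25 (adjusted p = 0.15). The call was kept without LKO-labelled HFD replicate 2 (adjusted p = 0.034) and lost without any one of the other 7 libraries (0.062 to 0.096).

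Hsd3b7, the ring-modifying 3β-hydroxy-C27-steroid oxidoreductase shared by all routes, was higher on HFD and had higher values under the LKO label. Its FPKM was 168 and 172 in f/f-labelled and 213 and 191 in LKO-labelled CD liver, and 223 and 213 in f/f-labelled and 254 in both LKO-labelled HFD libraries. After normalization all 4 HFD libraries were above all 4 CD libraries, whereas the deposited values of f/f-labelled HFD replicate 2 (212.6) and LKO-labelled CD replicate 1 (213.2) lay side by side. Averaged over the genotypes it rose by 0.45 ± 0.06 on HFD (limma adjusted p = 0.010), a factor of 1.37. In LKO-labelled liver alone it rose by 0.46 ± 0.09 (adjusted p = 0.048), and in f/f-labelled liver the difference was 0.45 ± 0.09 (adjusted p = 0.067). Without quantile normalization the average rise was smaller, 0.34 (limma adjusted p = 0.013). The ratio of deposited means, HFD to CD, was 1.28 in f/f-labelled and 1.26 in LKO-labelled liver. The call in LKO-labelled liver was lost without any one of the 8 libraries (adjusted p 0.072 to 0.22), whereas that of the average was kept in each case (0.018 to 0.047). The genotype difference was 0.26 ± 0.09 on CD, 0.28 ± 0.09 on HFD and 0.27 ± 0.06 in their average (limma adjusted p = 0.16).

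Akr1d1, the 5β-reductase that follows HSD3B7, was 83.4 and 70.1 in f/f-labelled CD, 83.6 and 70.6 in LKO-labelled CD, 73.1 and 96.3 in f/f-labelled HFD and 100.3 and 91.5 in LKO-labelled HFD liver. The values of the genotypes overlapped on CD and on HFD, where f/f-labelled replicate 1 was lowest. The diet difference was 0.19 ± 0.16 in f/f-labelled liver (limma adjusted p = 0.54), 0.40 ± 0.16 in LKO-labelled liver (adjusted p = 0.21) and 0.29 ± 0.11 in the average (unadjusted p = 0.033, adjusted p = 0.14).

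Of the peroxisomal enzymes, Acox2 passed the test for diet and Amacr did not. Acox2, the branched-chain oxidase that acts on bile acid intermediates, was 93.6 and 91.5 in f/f-labelled CD, 103 and 96.2 in LKO-labelled CD, 138 and 127 in f/f-labelled HFD and 123 and 145 in LKO-labelled HFD liver. Every HFD library was above every CD library, and the genotypes lay close together on each diet. Acox2 rose on HFD by 0.55 ± 0.08 in f/f-labelled liver (limma adjusted p = 0.041), by 0.53 ± 0.08 in LKO-labelled liver (adjusted p = 0.032) and by 0.54 ± 0.06 in the average (adjusted p = 0.0061), a factor of 1.45. The average passed without any one library (adjusted p 0.016 to 0.034), while the calls within a genotype were lost in every such case, with adjusted p of 0.064 to 0.21 for f/f-labelled and 0.054 to 0.15 for LKO-labelled liver. Amacr, the racemase that prepares the side chain for ACOX2, was 69.0 and 64.0 in f/f-labelled CD, 64.3 and 77.9 in LKO-labelled CD, 57.3 and 57.5 in f/f-labelled HFD and 56.9 and 62.6 in LKO-labelled HFD liver. Its average diet difference was -0.15 ± 0.07 (limma adjusted p = 0.20).

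Baat, the amino acid N-acyltransferase that conjugates the product, was the member with the second lowest variation (4.76%). Its FPKM was 127 and 132 in f/f-labelled CD, 119 and 115 in LKO-labelled CD, 130.3 and 130.4 in f/f-labelled HFD and 126 and 123 in LKO-labelled HFD liver. On both diets both LKO-labelled values were below both f/f-labelled values before normalization. The genotype difference in limma was -0.14 ± 0.07 on CD (adjusted p = 0.47) and -0.02 ± 0.07 on HFD (adjusted p = 0.96).

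Calls over the 10 genes were counted beside the share of all tested genes that met the same rule. For the genotype on HFD, 0 of 10 had a limma adjusted p under 0.05 (0.043% of all tested genes did), 3 of 10 had an unadjusted p under 0.05 (9.58%), and 5 of 10 did not overlap between the genotypes after normalization (42.2%), Cyp7a1 and Cyp7b1 being lower and Cyp8b1, Hsd3b7 and Amacr higher in LKO-labelled liver. In deposited FPKM Amacr overlapped on HFD, while Cyp27a1 and Baat did not and were lower in LKO-labelled liver. On CD the numbers were 0 of 10 by limma adjusted p (0.0172%), 2 of 10 unadjusted (12.3%) and 5 of 10 without overlap (43%). In the average over diets they were 0 of 10 (0.103%) and, unadjusted, 3 of 10 (13.5%), namely Cyp7a1, Cyp7b1 and Hsd3b7, and Cyp7a1 alone did not overlap (4.84%). The median difference of the members was 0.02 on HFD and on CD, close to the median of all tested genes, which was within 0.01 of 0. The interaction had 0 of 10 members by limma adjusted p (0.0344%) and 0 of 10 unadjusted (8.35%).

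**Figure D2:**
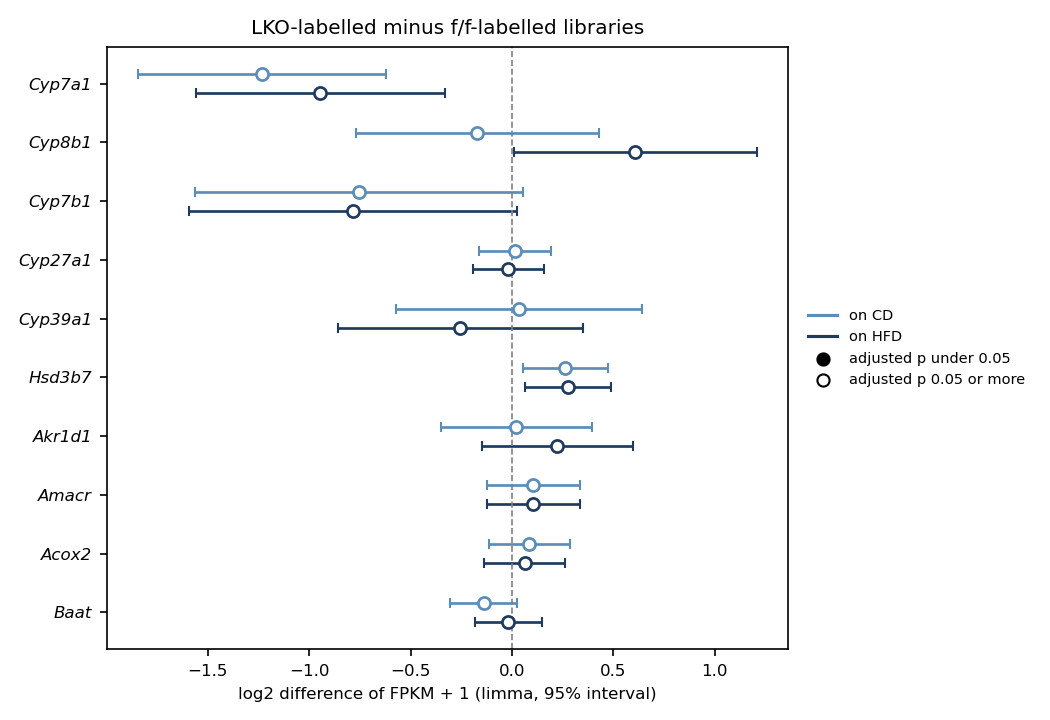
LKO-labelled minus f/f-labelled differences (horizontal axis, log2 of FPKM + 1, limma estimate with 95% interval) for the 10 genes on CD and on HFD. Cyp7a1 lies at -1.23 and -0.94 with intervals below 0, Cyp8b1 at -0.17 on CD and 0.61 on HFD, and every point is open because no adjusted p was under 0.05.

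For the diet in f/f-labelled liver, 1 of 10 members had a limma adjusted p under 0.05 (1.33%), 5 of 10 an unadjusted p under 0.05 (19.2%) and 7 of 10 did not overlap (50.3%). In LKO-labelled liver the numbers were 2 of 10 (3.02%), 6 of 10 (21.3%) and 6 of 10 (52.9%). In the average over genotypes 4 of 10 passed the adjusted threshold (9.89%), of which Acox2, Hsd3b7 and Cyp39a1 rose and Cyp7b1 fell, 6 of 10 were under 0.05 unadjusted (27.9%) and 3 of 10 did not overlap (16.7%). The comparisons within a genotype share no libraries, but each shares its libraries with the genotype comparisons.

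**Figure D3:**
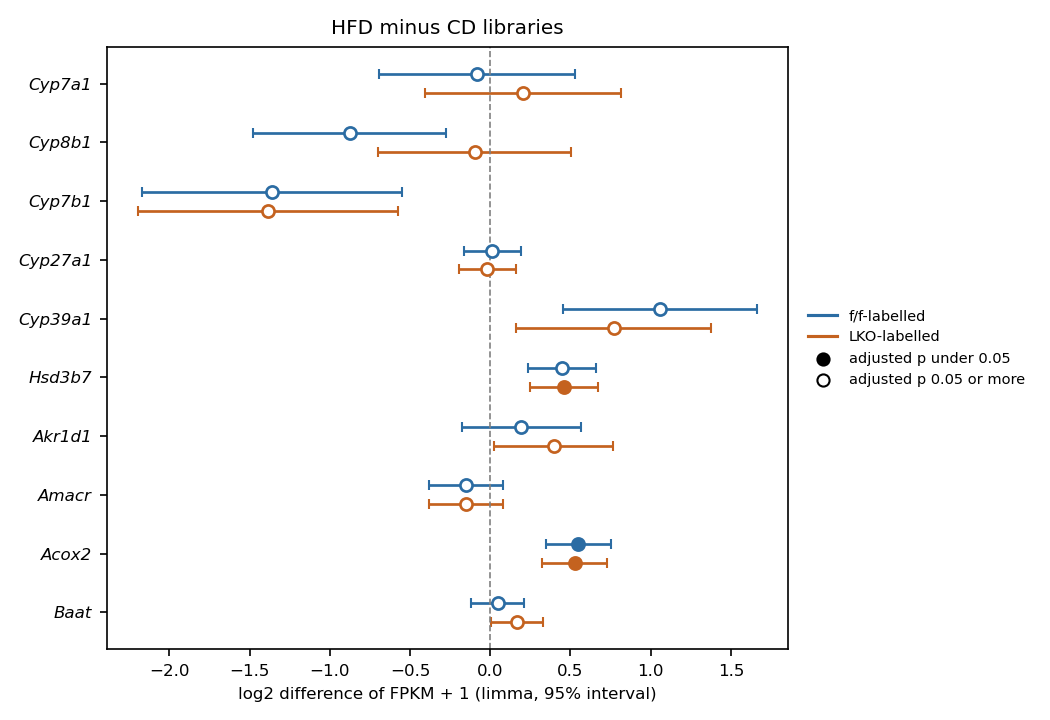
Differences between HFD and CD libraries (horizontal axis, log2 of FPKM + 1, limma estimate with 95% interval) for the 10 genes under each genotype label; filled points have an adjusted p under 0.05. Acox2 is filled at 0.55 and 0.53 and Hsd3b7 at 0.46 in LKO-labelled liver, Cyp7b1 lies at -1.36 and -1.39, and Cyp8b1 lies at -0.88 in f/f-labelled and -0.10 in LKO-labelled liver.

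Ratios between enzymes within a library, chosen after the values were seen and are given without a test. Cyp8b1 over Cyp7a1 was 3.45 and 2.84 in f/f-labelled CD, 6.42 and 6.91 in LKO-labelled CD, 2.24 and 1.41 in f/f-labelled HFD and 5.04 and 5.34 in LKO-labelled HFD liver. Every LKO-labelled library was above every f/f-labelled one. Cyp39a1 over Cyp7b1, both 7α-hydroxylases of oxysterols, was 0.0315 and 0.0489 in f/f-labelled and 0.0866 and 0.0544 in LKO-labelled CD liver, and 0.20 and 0.269 in f/f-labelled and 0.475 and 0.229 in LKO-labelled HFD liver. The 4 HFD libraries were above the 4 CD libraries, and the genotypes overlapped on HFD. Cyp7b1 over Cyp7a1, the 7α-hydroxylases of the alternative and the classic route, was 3.14 and 1.92 in f/f-labelled and 2.82 and 4.29 in LKO-labelled CD liver, and 1.37 and 0.733 in f/f-labelled and 0.814 and 1.52 in LKO-labelled HFD liver. The genotypes overlapped on both diets, and the HFD libraries were below the CD libraries. Cyp7b1 over Cyp27a1 had a mean of 1.11 ± 0.0615 (SD, n = 2) in f/f-labelled CD, 0.672 ± 0.245 in LKO-labelled CD, 0.436 ± 0.157 in f/f-labelled HFD and 0.255 ± 0.0479 in LKO-labelled HFD liver. The f/f-labelled CD libraries were highest in that ratio and the LKO-labelled HFD libraries lowest.

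**Figure D4:**
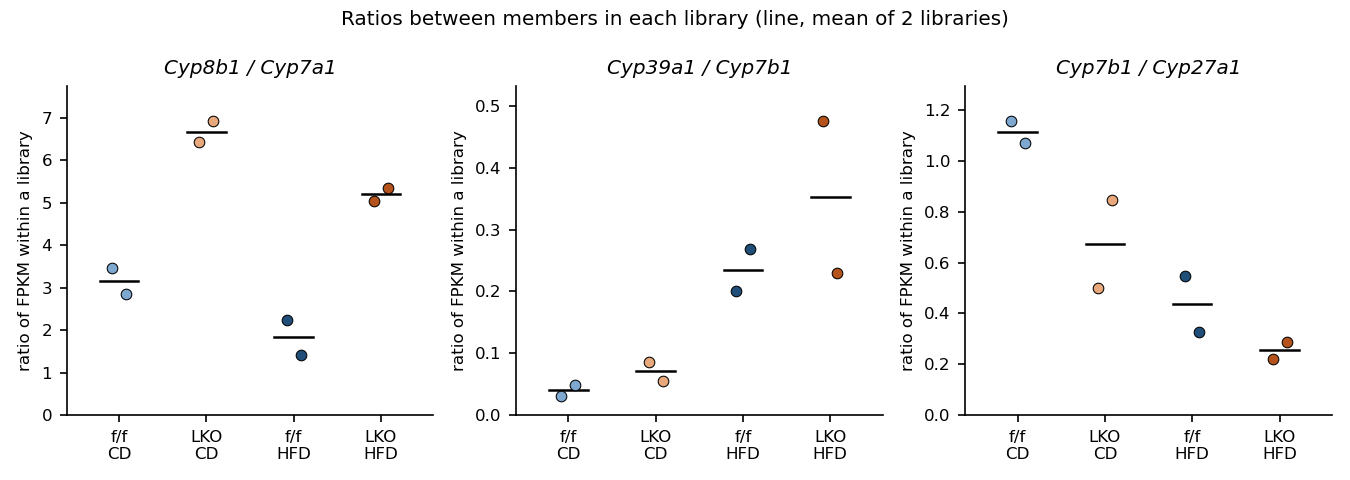
Ratio of the FPKM of 2 members within each library (vertical axes from 0) by genotype label and diet; points are libraries and lines are means of 2 libraries. Cyp8b1 over Cyp7a1 is 5.04 to 6.91 in the 4 LKO-labelled libraries and 1.41 to 3.45 in the 4 f/f-labelled ones.

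The other genes of the pathway gave adjusted calls for diet and none for genotype. Of 12 listed, 11 were tested, and Ch25h was at or under 1. In the average over genotypes 4 of 11 passed the limma adjusted threshold for diet (9.89% of all tested genes). Cyp2c70, which makes muricholic acids in mouse, fell by 0.70 ± 0.12 (adjusted p = 0.019). Acnat2, an acyl-CoA amino acid N-acyltransferase, rose by 1.07 ± 0.24 (adjusted p = 0.039), the peroxisomal bifunctional enzyme gene Hsd17b4 by 0.23 ± 0.06 (adjusted p = 0.049) and the acyl-CoA synthetase gene Slc27a2 by 0.45 ± 0.11 (adjusted p = 0.0497). Acnat2 has a close paralog, Acnat1, between which reads may be divided. Deposited FPKM of all 4 called genes overlapped between the diets. LKO-labelled CD replicate 1 and f/f-labelled HFD replicate 2 had 193.7 and 202.3 for Cyp2c70, and 31.15 and 27.41 for Acnat2. The genotype on HFD gave 3 higher and 1 lower at an unadjusted limma p under 0.05 (9.58% of all tested genes) and none past the adjusted threshold, with 10 of 11 differences positive and a median of 0.26 against 0.00 over all tested genes. On CD 5 were positive and 6 negative, with a median of -0.03 and none (0) under 0.05 in limma before adjustment. On HFD Cyp2c70 had the negative one (-0.53 ± 0.17, limma adjusted p = 0.38). These differences are after normalization. Of the 3 higher, Scp2 (0.27 ± 0.11) overlapped in deposited FPKM on HFD, at 1461 and 1444 in f/f-labelled and 1455 and 1548 in LKO-labelled liver. The deposited values of the others, Hsd17b4 and Acot8, did not overlap between the genotypes on HFD.

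Among 15 regulators, all tested, 5 passed the limma adjusted threshold for diet in the average over genotypes (9.89% of all tested genes). The partner receptor Rxra rose by 0.27 ± 0.04 (adjusted p = 0.015), Hnf4a by 0.28 ± 0.07 (adjusted p = 0.048), and the FGF15 receptor genes Fgfr4 and Klb by 0.21 ± 0.05 and 0.24 ± 0.06 (adjusted p = 0.045 and 0.046). Within the genotypes the diet difference of Fgfr4 was 0.40 ± 0.07 in f/f-labelled (limma adjusted p = 0.056) and 0.02 ± 0.07 in LKO-labelled liver (adjusted p = 0.90), with an interaction of -0.38 ± 0.10 (adjusted p = 0.56). Cebpb, a bZIP factor, fell by 0.55 ± 0.12 (adjusted p = 0.032). For the genotype none of the 15 passed in either diet or in the average by limma, and 3 were under 0.05 unadjusted on CD (12.3% of all tested genes) and 1 on HFD (9.58%). Foxo1, a forkhead factor, came nearest, at -0.88 ± 0.10 on CD (adjusted p = 0.076) and -0.51 ± 0.07 in the average (adjusted p = 0.073). On HFD its libraries overlapped, at -0.14 ± 0.10 (limma adjusted p = 0.70), and the interaction was 0.74 ± 0.14 (adjusted p = 0.45). The FXR gene Nr1h4 had a difference of -0.22 ± 0.08 on HFD (limma adjusted p = 0.43).

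**Figure D5:**
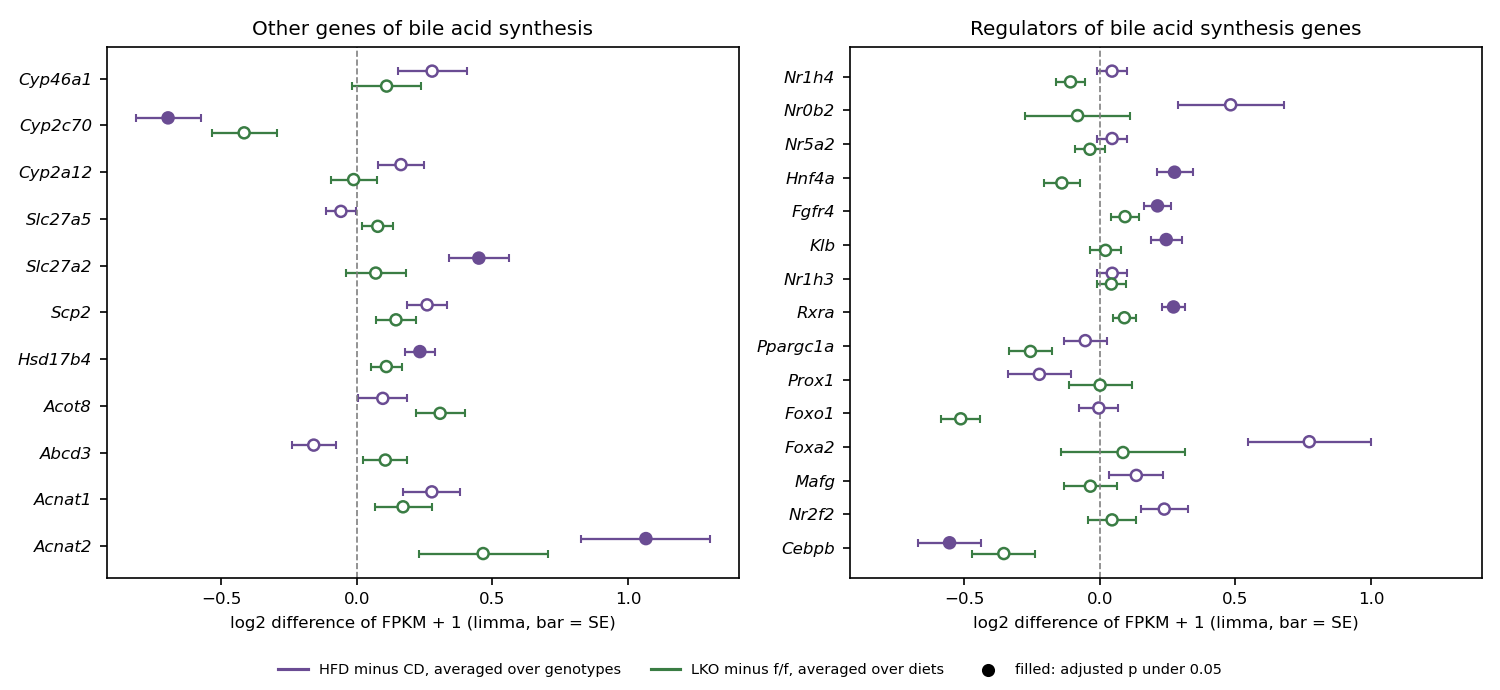
Log2 differences of FPKM + 1 (horizontal axis, limma estimate with SE bars) for 11 other genes of bile acid synthesis and 15 regulators, for diet averaged over the genotypes and for genotype averaged over the diets; filled points have an adjusted p under 0.05. Filled points occur for diet only, 4 among the other genes and 5 among the regulators, with Cyp2c70 at -0.70 and Acnat2 at 1.07 the farthest from 0 of the filled points.

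The genes most like 3 members in their pattern over the 8 libraries, by Pearson r of normalized log2 values among 6739 genes with a mean FPKM of at least 5, are given as a description, since all of them share the same 8 libraries and 4 groups. For Cyp7a1 they were Sf3b1 (0.96), Tomm22, Sf3a2, Dcaf1 and Psmf1 (0.94), and the most opposite were Tbc1d9b (-0.98), Iqsec1 and Ap3s1. For Cyp8b1 they were Ide, Clec4f, Mtor, Usp9x and ENSMUSG00000084051 (0.95 to 0.93), and the most opposite Hdac1, Ctsf and Gm16559. For Cyp7b1 they were Rrnad1 (0.99), the urinary protein genes Mup12 and Mup-ps17, Cebpb and Gys2 (0.97), and the most opposite Tceal8 (-0.99), Stom and Ormdl1. No other member was among them.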

How the data were processed

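Poly(A) RNA of mouse liver was sequenced as 8 libraries, 2 per group of genotype and diet. The authors removed adapters with cutadapt 1.0, aligned reads to GRCm38 with TopHat2 2.0.7 and estimated expression with Cufflinks, per the labels and the methods of the study, and the deposited values are FPKM per gene, not on a log scale. The annotation release they used is not given in the sources used here, and FPKM does not show the depth of a library, so that no interval for counting error was given. The 10 genes were named by symbol, and they and the lists were chosen with earlier results of these data known.

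Symbols and coordinates were matched by Ensembl identifier to the annotation of GRCm38 (36341 of 38283 genes). The 11634 genes that exceeded an FPKM of 1 in some library were tested. After adding 1, log2 values were quantile normalized, as the authors did. Differences were tested with limma 3.58.1 in R 4.3.3, in 1 fit of 4 groups without covariates, with a mean-variance trend (4 residual and 2.8 prior degrees of freedom). P-values were two-sided and adjusted by the Benjamini-Hochberg method over all tested genes within each of the comparisons, with a threshold of 0.05. Each average is the mean of the corresponding differences. The permutation procedure of the study was not run. FPKM is given as deposited, with mean ± SD. Fold changes are on the quantile normalized log2(FPKM + 1) scale, so that they can differ from the ratio of deposited values, also for abundant genes. Overlap between groups was judged after normalization unless stated.

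All 10 genes were described in every comparison. From each further list, at most 4 genes per comparison were eligible, those with the smallest unadjusted p under 0.05. Genes eligible in one comparison were also given in others. Genes at or under 1, genes that made up most of a sum, and Col1a1 and Col3a1 were named outside this rule. Alternatives were no quantile normalization, median centring, adding 0.1 in place of 1, testing genes that exceeded 1 in all 8 libraries or 0 in any, no trend, the replicate number as a block, only the 4 libraries compared, and leaving out each library. The script was tested on simulated data. Promoter windows were from RefSeq. Figures were drawn with matplotlib 3.10.9.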

Additional observations from a re-analysis of the deposited data

How the results depend on the processing

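Of 1090 values of the members recomputed under another setting, 975 kept their direction and their side of the threshold, 56 lost a call, 3 gained one and 56 changed sign, 52 of these when a library was left out. The calls of Acox2 and Hsd3b7 in the average over genotypes were kept under every alternative. Their sizes were smaller without quantile normalization, 0.46 and 0.34 (0.54 and 0.45 as reported). Those of Cyp7b1 and Cyp39a1 were lost with all genes above 0 tested (adjusted p = 0.051 and 0.066), and those within a genotype were kept in 3 of 8 alternatives for Acox2 in f/f-labelled liver, 2 of 8 for Acox2 and 2 of 8 for Hsd3b7 in LKO-labelled liver. Without quantile normalization Cyp27a1 had -0.033 for the diet in f/f-labelled liver and Hsd3b7 -0.025 for the interaction, and with median centring -0.0069 and -0.024 (0.014 and 0.012 as reported). The causes were not tested.

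Counts of genes past the adjusted threshold, over all tested genes, changed as follows. Testing genes above 1 in all 8 libraries gave 7 for the genotype on CD (2 as reported), 50 for the genotype averaged over diets (12), 323 for the diet in f/f-labelled (155) and 570 in LKO-labelled liver (351) and 0 for the interaction by limma, with 874 at an unadjusted p under 0.05 (4 and 972 as reported). Testing all genes above 0 gave 24 for the genotype on HFD (5), 10 on CD, 28 in the average, 46 and 135 for the diet in f/f- and LKO-labelled liver, 704 for the diet in the average (1151) and 19 for the interaction. A pseudocount of 0.1 gave 1 for the genotype on CD and 2 for the interaction. Without a variance trend the numbers were 4 for the genotype on CD and 42 and 229 for the diet, and with only the 4 libraries compared 4, 28 and 23. Without quantile normalization the genotype averaged over diets had 7, 1 higher and 6 lower (5 and 7 as reported), and the diet had 56 higher and 109 lower in f/f-labelled (73 and 82), 136 and 239 in LKO-labelled (183 and 168) and 397 and 703 in the average (586 and 565). The replicate block gave 34 and 223 for the diet. The correlations of deviations between same-numbered libraries were -0.0037 to 0.15, so that no strong shared deviation was seen. Whether same-numbered pools were handled together cannot be told from these values. With the block every member call in the averages was kept while the 3 within a genotype had limma adjusted p of 0.057 to 0.073.

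Leaving out 1 library gave 4 to 21 genes for the genotype on HFD, 2 to 19 on CD, 13 to 30 averaged, 14 to 49 and 21 to 154 for the diet in f/f- and LKO-labelled liver, 374 to 816 averaged and 10 to 21 for the interaction. The single library left in a group was assumed to vary like the others. Members whose sign turned in such fits had differences as reported from -0.29 (Cyp39a1, interaction) to 0.29 (Cyp7a1, interaction). With 1 library left out, the values for the genotype on HFD ran from -0.081 to 0.044 for Cyp27a1, from -0.60 to 0.089 for Cyp39a1, from -0.012 to 0.14 for Acox2, from -0.079 to 0.041 for Baat. For the genotype on CD these values ran from -0.35 to 0.015 for Cyp8b1, from -0.041 to 0.072 for Cyp27a1, from -0.20 to 0.26 for Cyp39a1, from -0.096 to 0.14 for Akr1d1, from -0.020 to 0.23 for Amacr. For the diet in f/f-labelled liver these values ran from -0.40 to 0.23 for Cyp7a1, from -0.0029 to 0.031 for Cyp27a1. For the diet in LKO-labelled liver these values ran from -0.092 to 0.51 for Cyp7a1, from -0.35 to 0.16 for Cyp8b1, from -0.083 to 0.043 for Cyp27a1. For the interaction these values ran from -0.029 to 0.60 for Cyp7a1, from -0.48 to 0.43 for Cyp7b1, from -0.097 to 0.029 for Cyp27a1, from -0.63 to 0.053 for Cyp39a1, from -0.083 to 0.098 for Hsd3b7, from -0.13 to 0.12 for Amacr, from -0.097 to 0.048 for Acox2. For the genotype averaged over diets these values ran from -0.032 to 0.030 for Cyp27a1, from -0.28 to 0.062 for Cyp39a1. For the diet averaged over genotypes these values ran from -0.097 to 0.22 for Cyp7a1, from -0.035 to 0.028 for Cyp27a1.

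Depth per library is not known from FPKM, and no counting error is given.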

Other observations

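Hepatocyte zonation genes, which mark cells near the central vein or near the portal tract, moved with the diet. Of 8 tested pericentral genes, 3 passed the limma adjusted threshold in the average over genotypes (9.89% of all tested genes). Cyp2e1, a cytochrome of alcohol and drug oxidation, rose by 0.92 ± 0.07 on the log2 scale after normalization (adjusted p = 0.0031). Its deposited FPKM rose less, from 3875 to 4680 in the CD libraries to 5512 to 6770 in the HFD libraries. Glul rose by 0.23 ± 0.05 (limma adjusted p = 0.038) and Cyp1a2 fell by 0.73 ± 0.15 (adjusted p = 0.032). Deposited FPKM of Glul overlapped between the diets, at 457.6 to 509.7 on CD and 488.1 to 525.0 on HFD. Of 8 periportal genes, 4 passed (9.89% of all tested genes). Sds, a serine dehydratase, fell by 0.67 ± 0.07 (adjusted p = 0.0061), Cyp2f2 and the gluconeogenic gene Pck1 fell by 0.48 and 0.67, and the lipid droplet gene Hsd17b13 rose by 0.29. None of either list passed for the genotype in limma. On HFD 2 pericentral genes were higher and 3 periportal genes lower at an unadjusted limma p under 0.05 (9.58% of all tested genes). Of the 2 higher, Cyp2e1 overlapped in deposited FPKM, at 6332 and 6173 in f/f-labelled and 5512 and 6770 in LKO-labelled HFD liver. Deposited values of Lect2, the other, and of the 3 periportal genes did not overlap. Of 7 tested hepatocyte markers 3 passed for the diet in the average by limma (9.89% of all tested genes). Tat fell by 1.14 ± 0.12 (adjusted p = 0.0061), and Ttr and Hnf4a rose by 0.39 and 0.28 after normalization (limma adjusted p = 0.026 and 0.048). Deposited FPKM of Ttr did not separate the diets, at 3994 to 4541 on CD and 4034 to 4302 on HFD. That of Hnf4a overlapped too, at 102.4 to 118.9 on CD and 109.5 to 139.5 on HFD.

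Of 7 markers of stellate cells and fibroblasts, Rgs5 (0.81, limma adjusted p = 0.0061) and Dcn (0.78, adjusted p = 0.028) rose with the diet in the average. Of 6 endothelial markers Lyve1 did (0.76, limma adjusted p = 0.021). The share of all tested genes past that threshold was 9.89%. Of the 6 bile duct markers 2 were tested, and neither passed for the diet. By limma none of the 3 lists passed for the genotype, with 1 stellate marker lower on CD at an unadjusted p under 0.05 (12.3% of all tested genes). The summed FPKM of the stellate list was 37.2 to 60.3 in the CD and 68.1 to 92.8 in the HFD libraries, most of it Dcn (26.4 to 72.2). The collagen genes Col1a1 and Col3a1 had differences of -0.13 and -0.14 (limma adjusted p = 0.53 and 0.63). The part of these cells in the diet differences of the members was not tested.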
